A study of Homo sapiens with 16 samples.

Results

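Trimethylated lysine 4 of histone H3 (H3K4me3) was called at 5802 gene-end peaks narrower than 6 kb in multiple myeloma cells expressing wild type NSD2, and at 619 of them plain TKO cells had no overlapping peak. These 619 regions, of 8140 peaks in the wild type H3K4me3 list, are described here. They were chosen by the presence of a peak in the wild type list and its absence from the TKO list. Each has its centre within 1 kb of an end of a RefSeq protein-coding gene record (GRCh38), and together they touch 684 such records. The other 5183 gene-end peaks, which a TKO peak overlaps, serve as the comparison. All cells were of the TKO line, a KMS-11 derivative labelled as a plasma cell line of genotype WHSC1(+/-), where WHSC1 is another name of NSD2. The forms compared were cells expressing wild type NSD2 (WT), NSD2 carrying D1240A, NSD2 carrying F1295A, and plain TKO cells, for which the labels name no form. All groups therefore share the WHSC1(+/-) background, and the labels do not say how the forms were expressed or whether a line was 1 clone. ChIPmentation, which adds sequencing adaptors by a transposase to immunoprecipitated chromatin, gave 1 H3K4me3 sample and 2 H3K27me3 samples per form, and the 2 H3K27me3 samples of a form share 1 peak list. The 4 IgG samples were not analysed here. Every comparison below thus sets single lists side by side, without a replicate check, and no test between forms was possible.

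H3K4me3 is written by the SET1 and MLL complexes at the start of active genes and at many poised CpG-rich promoters. NSD2 methylates lysine 36 of histone H3 in gene bodies, a mark that hinders Polycomb repressive complex 2, the enzyme of H3K27me3. In t(4;14) myeloma the translocation drives NSD2 to high levels, and genes of adhesion, migration and growth are known to respond to it. A promoter can hold H3K4me3 and H3K27me3 together, a state called bivalent that is common at developmental genes.

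The promoters below illustrate the regions: the strongest WT peak of each pattern in the mutants that a named gene's listed start falls into, and the pair of strongest peaks whose place is taken by H3K27me3 in TKO. The sequences are from RefSeq (GRCh38.p14), 5′ to 3′ on the strand of the gene, from 250 bases before to 50 after a listed start, and capitals mark each CpG dinucleotide. TAGLN2 had no peak in either mutant, FAM149A had a peak in F1295A alone, BRSK1 in D1240A alone and DBN1 in both. FADS2 and CACNA2D1 are the pair with H3K27me3 in TKO. CpG dinucleotides numbered 41 in the DBN1 window, 29 in CACNA2D1, 23 in FAM149A, 18 in TAGLN2, 18 in FADS2 and 11 in BRSK1.
TAGLN2 (chr1:159925458-159925757, minus strand): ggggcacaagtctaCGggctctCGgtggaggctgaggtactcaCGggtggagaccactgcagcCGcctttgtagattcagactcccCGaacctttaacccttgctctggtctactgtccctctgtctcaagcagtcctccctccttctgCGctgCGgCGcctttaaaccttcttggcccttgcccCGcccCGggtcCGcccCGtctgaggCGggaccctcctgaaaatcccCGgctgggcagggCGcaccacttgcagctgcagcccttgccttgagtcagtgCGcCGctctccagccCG
FAM149A (chr4:186104454-186104753, plus strand): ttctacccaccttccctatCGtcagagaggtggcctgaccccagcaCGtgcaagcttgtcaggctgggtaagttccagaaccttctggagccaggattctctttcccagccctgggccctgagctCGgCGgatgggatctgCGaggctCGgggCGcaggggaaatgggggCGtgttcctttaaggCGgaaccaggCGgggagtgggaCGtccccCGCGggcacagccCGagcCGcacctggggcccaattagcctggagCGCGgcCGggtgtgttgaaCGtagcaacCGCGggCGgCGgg
BRSK1 (chr19:55283747-55284046, plus strand): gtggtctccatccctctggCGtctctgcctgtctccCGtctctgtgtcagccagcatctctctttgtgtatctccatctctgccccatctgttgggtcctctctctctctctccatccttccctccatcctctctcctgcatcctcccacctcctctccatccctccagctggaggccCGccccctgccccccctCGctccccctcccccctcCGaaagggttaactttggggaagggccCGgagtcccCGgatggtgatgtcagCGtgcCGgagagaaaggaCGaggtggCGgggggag
DBN1 (chr5:177473585-177473884, minus strand): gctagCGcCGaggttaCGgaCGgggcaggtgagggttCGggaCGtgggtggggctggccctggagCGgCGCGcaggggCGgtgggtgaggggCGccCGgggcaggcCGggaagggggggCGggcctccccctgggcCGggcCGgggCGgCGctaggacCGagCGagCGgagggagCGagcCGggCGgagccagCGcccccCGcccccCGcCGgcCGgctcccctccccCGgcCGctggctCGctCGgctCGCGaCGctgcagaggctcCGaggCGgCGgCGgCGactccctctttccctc
FADS2 (chr11:61815953-61816252, plus strand): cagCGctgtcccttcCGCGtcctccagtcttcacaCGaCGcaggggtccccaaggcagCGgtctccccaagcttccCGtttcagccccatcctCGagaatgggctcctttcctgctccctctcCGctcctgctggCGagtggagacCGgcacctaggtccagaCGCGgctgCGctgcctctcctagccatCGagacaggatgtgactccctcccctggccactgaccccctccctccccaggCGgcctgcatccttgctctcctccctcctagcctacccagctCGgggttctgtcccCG
CACNA2D1 (chr7:82443907-82444206, minus strand): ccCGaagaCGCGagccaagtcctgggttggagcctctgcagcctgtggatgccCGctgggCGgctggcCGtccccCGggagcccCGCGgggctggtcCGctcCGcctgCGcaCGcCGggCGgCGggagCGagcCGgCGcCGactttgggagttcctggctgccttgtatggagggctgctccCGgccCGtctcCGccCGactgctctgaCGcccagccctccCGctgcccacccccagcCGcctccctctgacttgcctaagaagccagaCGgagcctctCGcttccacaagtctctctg

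The regions lay at gene ends with little H3K4me3 signal in WT. The rule read the WT and TKO lists, so their WT values and the absence in TKO are given as a description. Each peak of a list carries a total and a highest signal from the authors' peak caller, and totals are given in units of 1000. The WT total was 139 at the lowest, 164 at the median and 755 at the highest of the 619 regions, against a median of 341 over the 5183 comparison peaks. Their median stood at the 7.86th percentile of the whole WT list, and 525 regions (84.8%) lay within 1.5 times the lowest total that the WT list holds, against 15.7% of comparison peaks. Highest signal had a median of 251, against 453, and width a median of 2.64 kb, against 3.18 kb. The regions were thus both lower and narrower. By the rule's own contrast 10.7% of the eligible peaks were chosen, but this share was 69.7% in the weakest band of WT totals (139 to 158.3) and 0.31% above 318.

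**Figure D1:**
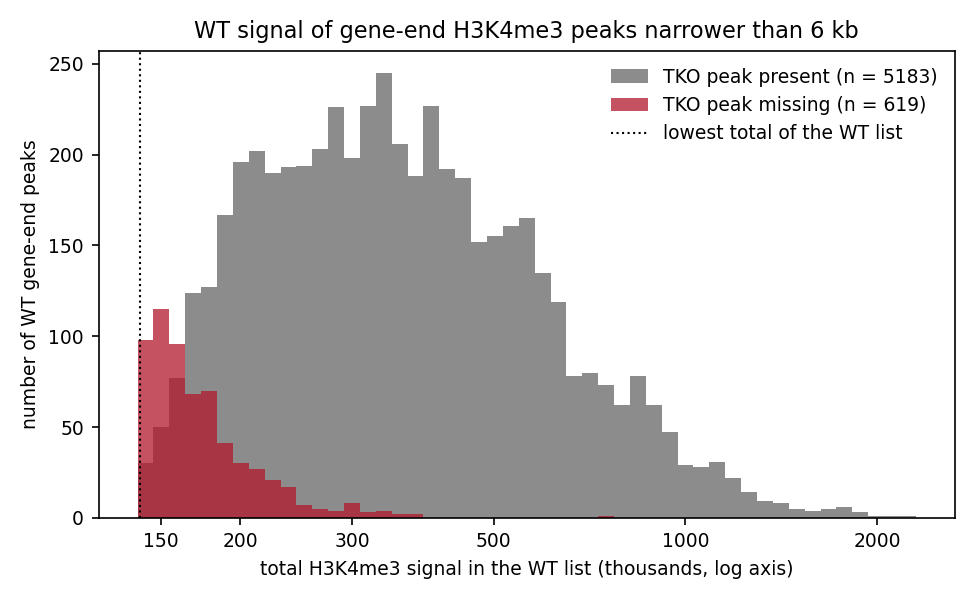
Number of WT gene-end H3K4me3 peaks (y axis) by their total signal in the WT list (x axis, units of 1000, log scale), for the 619 without a TKO peak (red) and the 5183 with one (grey), and the lowest total of the list (dotted). The red peaks crowd against the lowest total, with 1 isolated peak at 755.

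The lists differed in level as well as in length. At the 5183 comparison peaks the TKO total was 0.463 times the WT total at the median, and the lowest total in the TKO list was 72.7, which is 0.523 times that of WT. Scaled by the first ratio, 241 of the 619 WT totals (38.9%) would lie under the lowest TKO total, as would 94 (1.81%) of the comparison peaks. Read depth is unknown, its part and that of the calling threshold in the missing peaks were not tested, and a missing peak is not a signal of 0.

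The regions nearest to the width, window and overlap limits of the rule are named here. A call in the WT list is a further limit, and 525 regions (84.8%) lay within 1.5 times its lowest total. MARCKSL1 (5.932 kb), DEPP1 (5.847 kb) and TXNIP (5.794 kb) were the widest inside the width limit. Outside it lay 3 peaks without TKO overlap, at ZNF687 (6.675 kb), MC1R (6.986 kb) and SLC9A9 (7.516 kb). TMEM178B, with its peak centre 993 bp from the gene end, was just inside the window, and CCSER2, at 1010 bp, just outside. BRSK1 had the nearest TKO peak, 1563 bp away, while the smallest TKO overlap of a comparison peak was 983 bp, at NOMO3. The distance to the nearest TKO peak had a median of 100 kb, and 18 regions had a TKO peak within 5 kb.

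Most of the regions carried H3K4me3 in the mutants. F1295A peaks overlapped 538 of 619 (86.9%, 95% interval 84.0 to 89.5) and D1240A peaks 346 (55.9%, 51.9 to 59.9), with exact (Clopper-Pearson) intervals that cover counting error only. Without a peak were 273 regions in D1240A (44.1%), where 6.03% of all 5802 eligible peaks lacked one, and 81 in F1295A (13.1%), where 1.67% did. Both mutants had a peak at 331 regions (53.5%), F1295A alone at 207 (33.4%), D1240A alone at 15 (2.42%) and neither at 66 (10.7%), against 1.34% in neither over all eligible peaks. Among the 5183 comparison peaks, both mutants had a peak at 5102 (98.4%), F1295A alone at 65, D1240A alone at 4 and neither at 12. The comparisons with TKO, D1240A and F1295A share the WT list, through which the regions were chosen. The gap between the mutants was narrower with lists of equal length: taking the strongest 7396 peaks of each list, the rule chose 275 regions, of which D1240A had 60.0% and F1295A 68.7%, while 20% had a peak in neither. The stronger 50% of the WT list held 7 of the regions, of which 6 had a peak in both mutants. The lowest totals differed too, at 152 in the D1240A list and 169 in the F1295A list. The WT totals were scaled by the median ratio to WT over all eligible peaks with a peak of that mutant. So scaled, 216 of the 619 (34.9%) would lie under the lowest D1240A total and 0 under the lowest F1295A total. The part of this in the gap between the mutants was not tested. A region with a mutant peak was covered nearly throughout, at a median of 93.8% of its bases in D1240A and 98.5% in F1295A. Regions without a mutant peak were seldom next to one, since 3 of the 273 had a D1240A peak within 5 kb and 2 of the 81 an F1295A peak.

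WT signal and the mutant state moved together, yet at like WT signal the regions had mutant peaks less often than the comparison peaks by count. Median WT totals were 179 where both mutants had a peak, 160 for D1240A alone, 154 for F1295A alone and 146 for neither. In the weakest band (139 to 158.3), 29.6% of 253 regions had a D1240A peak (24.1 to 35.7), against 55.5% of 110 comparison peaks (45.7 to 64.9). In the next band (158.4 to 177.5) the shares were 60.1% of 153 and 90.0% of 210. Between 195.8 and 214.8 they were 84.0% of 50 and 100% of 313. For F1295A the same bands gave 77.5% against 90.0%, 89.5% against 98.1%, and 98.0% against 100%. Between 214.9 and 317.8 the D1240A shares were 89.9% of 69 and 100% of 1381. The F1295A shares there were 97.1% (89.9 to 99.6) and 100% (99.7 to 100). These intervals cover counting error within single lists and test no difference.

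**Figure D2:**
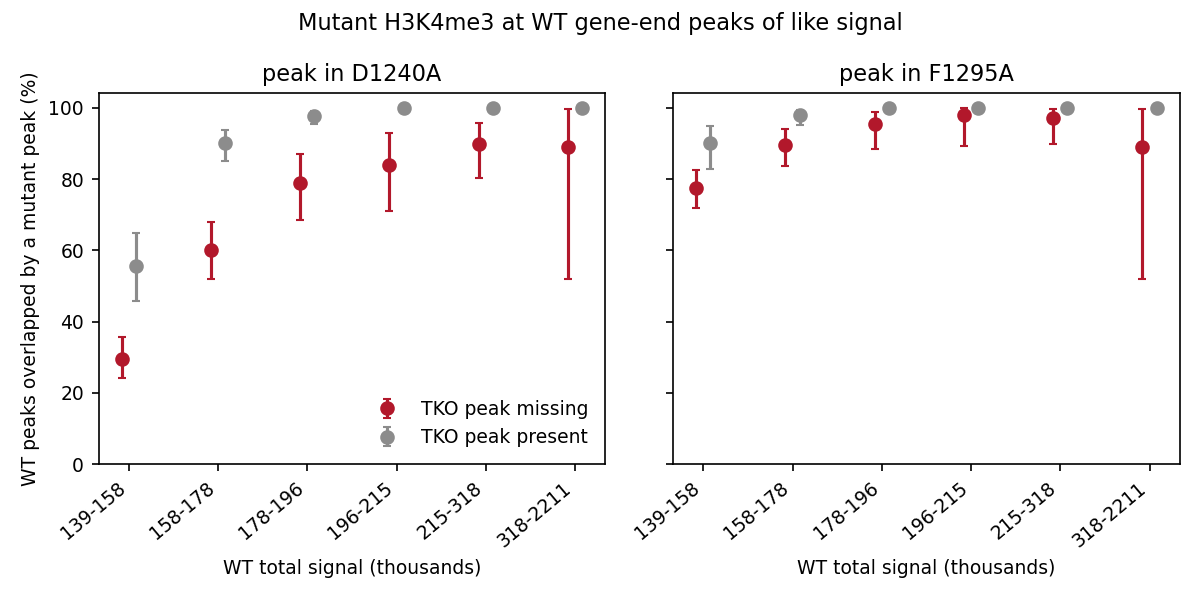
Share of WT gene-end peaks overlapped by a D1240A peak (left) or an F1295A peak (right) in 6 bands of WT total signal (x axis, units of 1000), for peaks missing in TKO (red) and present in TKO (grey), with exact 95% intervals of counting error. Red points lie under grey ones in each band, from 29.6% against 55.5% in the weakest band for D1240A.

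Totals of the mutant peaks were also lower relative to WT at the regions than at comparison peaks. Above the weakest of 4 equal groups of WT totals, 70 regions had a D1240A peak, and its total was 0.78 times the WT total at the median, against 0.979 at 1381 comparison peaks of the second group. For F1295A, 75 regions had a median of 1.11, against 1.26. Both ratios use the WT totals that helped to choose the regions. The ratio of D1240A to F1295A uses neither WT nor TKO values: it was 0.688 at the median of 68 regions (quartiles 0.639 and 0.773) and 0.774 at the 1381 comparison peaks (0.722 and 0.826). The median was thus lower at the regions, while the quartiles of both groups overlapped.

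Totals of different lists are not known to share a scale, so those that follow are to be read against the median ratios to WT at all comparison peaks with a mutant peak, 0.978 for D1240A and 1.26 for F1295A. The 6 strongest regions with a peak in both mutants were led by DBN1, which encodes the actin-binding protein drebrin. Its peak, chr5:177470587-177475255, had totals of 388 in WT, 317 in D1240A and 348 in F1295A. EPB41L4A, a gene of the band 4.1 family, had 383, 266 and 430 in the same order. The peak shared by FADS2 and FADS1, the desaturases of polyunsaturated fatty acids, had 348, 253 and 439. D1240A was the lowest of the 3 lists at each of these genes. Above the weakest group it was below WT at 66 of 70 regions and at 60.2% of the 1381 comparison peaks of the second group. CACNA2D1, an auxiliary subunit of voltage-gated calcium channels, had 348 in WT, 185 in D1240A and 313 in F1295A. NFATC1, a transcription factor switched on by calcineurin, had 345, 218 and 530. NEO1, the receptor neogenin, which binds netrins and repulsive guidance molecules, had 339, 255 and 309. F1295A thus stood above WT at EPB41L4A, FADS2 and NFATC1 and below it at the other 3, while F1295A totals at comparison peaks were 1.26 times WT at the median. Naming these 6 by their WT totals itself favours low ratios to WT.

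Among the regions with F1295A H3K4me3 alone, the strongest with a gene symbol was FAM149A (chr4:186104339-186106534), at 262 in WT and 263 in F1295A. CLGN, a chaperone of the endoplasmic reticulum known from testis, had 241 and 233. NRG3, a neuregulin ligand of ERBB4, had 241 and 197. TBC1D9, a gene with a Rab GTPase-activating domain, had 221 and 217. TMEM178B had 221 and 251, and H3K27me3 covered its peak wholly in WT and TKO. None of these 5 reached the F1295A to WT ratio that was typical of comparison peaks. They were named for high WT totals, so the choice itself favours low ratios to WT. D1240A had no peak at any of them. The lowest total of its list was 152, and the part of the calling threshold in these missing peaks was not tested.

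The 15 regions with D1240A H3K4me3 alone were led by BRSK1, a kinase of neuronal polarity, at 232 in WT and 402 in the overlapping D1240A peak. An F1295A peak lay 0.906 kb from it, and it was the 1 region among the 81 without an F1295A peak that had one within 1 kb. MOCS2, a gene of molybdenum cofactor synthesis, followed with 229 and 195. MIER2 (189 and 170), the cilium gene CFAP206 (184 and 161), the kinase gene STK38L (167 and 172) and the metalloprotease gene ADAMTS6 (164 and 154) completed the 6. Apart from BRSK1 these D1240A totals, 154 to 195, lay near the lower end of that list. A mutant peak can extend beyond the WT peak, and its total covers its whole width.

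TAGLN2, the gene of the actin-binding protein transgelin 2, stood apart among the 66 regions found in WT alone. Its peak at chr1:159922819-159927216 had a total of 755 and a highest signal of 703, and it ranked at percentile 87.8 among WT peaks by total. WT H3K27me3 overlapped 3.57% of it. In TKO, D1240A and F1295A alike the nearest H3K4me3 peak lay 103 kb away. No other region without a mutant peak exceeded 213, the total of STXBP5L, a syntaxin-binding gene of the tomosyn family. YAP1, the transcriptional coactivator held in check by the Hippo pathway, had 188. TGFA, a ligand of the EGF receptor, had 180, the heparan sulfate sulfotransferase gene HS3ST5 176 and the phosphoesterase gene MPPED2 175. Each of these apart from TAGLN2 ranked at percentile 22.7 or below among WT peaks.

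**Figure D3:**
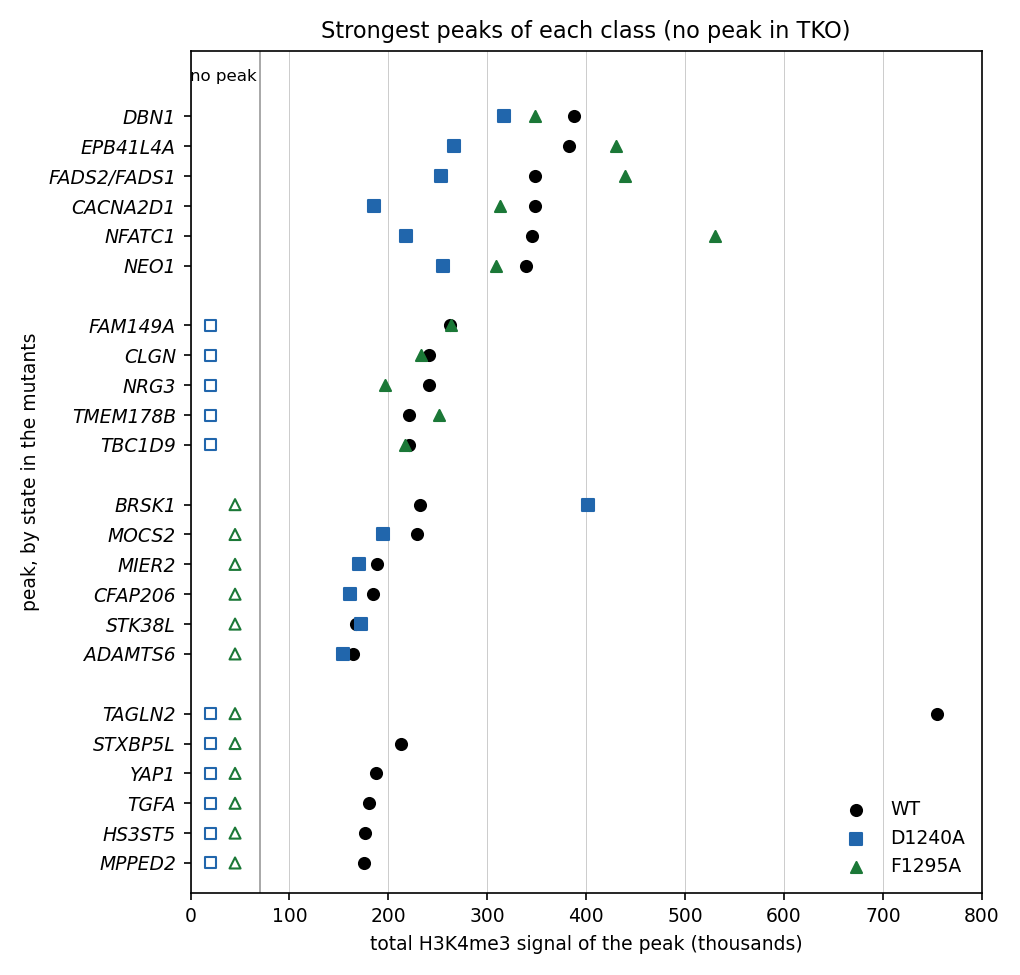
Total H3K4me3 signal (x axis, units of 1000) of the strongest regions of each class in WT (circles), D1240A (squares) and F1295A (triangles), 1 gene or gene pair per line, with open symbols at the left where a list has no peak. From top to bottom the blocks have a peak in both mutants, F1295A alone, D1240A alone and neither, and TAGLN2 at 755 is the outlying WT point.

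H3K27me3 lists were not read by the rule, and H3K27me3 lay on the regions more often than on comparison peaks in every form. It overlapped 43 of 619 regions in TKO (6.95%, 5.07 to 9.24), where 0.868% of comparison peaks and 1.52% of all eligible peaks had it. In WT it overlapped 33 (5.33%, 3.70 to 7.41), against 0.926% and 1.4%. D1240A had it at 12 (1.94%, 1.01 to 3.36), against 0.328% and 0.5%, and F1295A at 13 (2.10%, 1.12 to 3.56), against 0.386% and 0.569%. H3K27me3 was called most often in TKO (5881 peaks over 66.6 Mb), then in WT (3790 over 55.7 Mb), and least in D1240A (2188 over 32.0 Mb) and F1295A (2083 over 38.8 Mb), so the shares are to be read within a form. In the weakest of 4 groups of WT totals the TKO shares were 5.36% and 0.659%, and in the next 17.4% and 0.869%. The share was thus higher within both groups, but WT totals were not alike within the weakest. There 253 of 541 regions and 110 of 910 comparison peaks fell in its lowest band (139 to 158.3). H3K27me3 was not read in these finer bands. Counting peaks within 5 kb in place of overlap, for both marks, gave 7.65% of 601 regions in WT, 11.6% in TKO, 3.33% in D1240A and 3.99% in F1295A. H3K27me3 at comparison peaks was not recounted within 5 kb, so these shares cannot be set against those above. In all, 54 regions (8.72%) had H3K27me3 in at least 1 form, against 2.12% of all eligible peaks. Of these, 36 (66.7%, 52.5 to 78.9) had a D1240A H3K4me3 peak and 47 (87.0%) an F1295A peak. Of the 565 regions without H3K27me3 in any form, 54.9% had a D1240A peak and 86.9% an F1295A peak, so the F1295A shares were nearly equal.

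**Figure D4:**
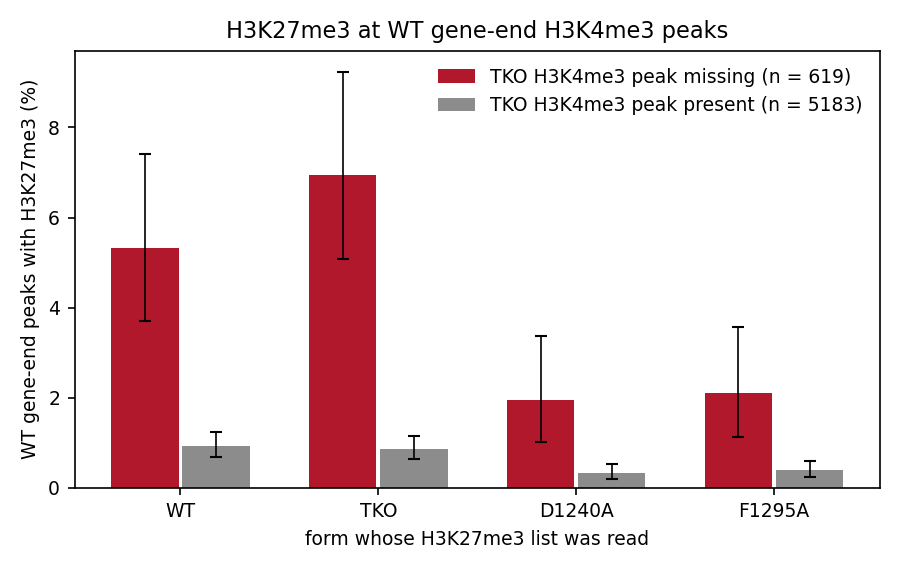
Share of WT gene-end H3K4me3 peaks (y axis, %) overlapped by an H3K27me3 peak in each form (x axis), for the 619 without a TKO H3K4me3 peak (red) and the 5183 with one (grey), with exact 95% intervals of counting error. The red bars, 5.33%, 6.95%, 1.94% and 2.10%, stand above the grey ones in all 4 forms.

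At 21 regions (3.39%, 2.11 to 5.14) H3K27me3 was called in TKO and not in WT, against 18 of the 5183 comparison peaks (0.347%) and 0.672% of all eligible peaks. With peaks counted within 5 kb the share of regions was 5.66%, and comparison peaks were not recounted so. The part that the longer TKO H3K27me3 list plays in these calls was not tested. These were replacements in the calls of both marks: H3K4me3 without H3K27me3 in WT, and H3K27me3 without H3K4me3 in TKO. The TKO H3K27me3 covered a median of 100% of the WT H3K4me3 peak, and 19 of the 21 were covered by at least 80%, compared with 4 of the 18 comparison peaks, whose median was 45.5%. The TKO H3K27me3 peaks were focal, 3.98 to 10.4 kb wide, and at a median percentile of 23 in their list by total signal. H3K4me3 was present at 12 of the 21 in both mutants, at 4 in F1295A alone and at 5 in neither. Over all 619 regions these shares were 53.5%, 33.4% and 10.7%, so H3K4me3 in both mutants is not particular to this pattern. Neither mutant had H3K27me3 at 20 of the 21. NOS1AP, an adaptor of neuronal nitric oxide synthase, was the exception with H3K27me3 in both. Over all 619 regions H3K27me3 was called at 1.94% in D1240A and 2.10% in F1295A. Its absence in the mutants is therefore not particular to this pattern.

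FADS2 and FADS1 had a TKO H3K27me3 peak at chr11:61814540-61818636 over 92.0% of the WT H3K4me3 peak. At CACNA2D1 the TKO peak, chr7:82441506-82446415, covered all of it. SH3RF3, a scaffold of JNK signalling, had H3K4me3 totals of 308 in WT, 156 in D1240A and 317 in F1295A and was wholly under H3K27me3 in TKO. GRIP1, a scaffold that binds AMPA receptors, had 297, 163 and 271, and PRR15 had 279, 242 and 377, with the same full cover. D1240A had the lowest total at each of these genes. Above the weakest of 4 groups of WT totals it was below WT at 94.3% of 70 regions, whatever their H3K27me3. The ratio of D1240A to F1295A had a median of 0.646 over the 12 regions of this pattern with both peaks (quartiles 0.599 and 0.757). It was 0.688 at the 68 regions above the weakest group and 0.774 at 1381 comparison peaks, with quartiles that overlap these. Other members were ARHGAP26, MYO10, the unconventional myosin of filopodia, the epithelial transcription factor gene GRHL1 and the sodium pump subunit gene ATP1B1. Among the 5 in neither mutant were FRAS1, which encodes an extracellular matrix protein of basement membranes, CHN1, a Rac GTPase-activating gene, the kinase gene HUNK and GALNT14, which starts O-glycosylation.

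**Figure D5:**
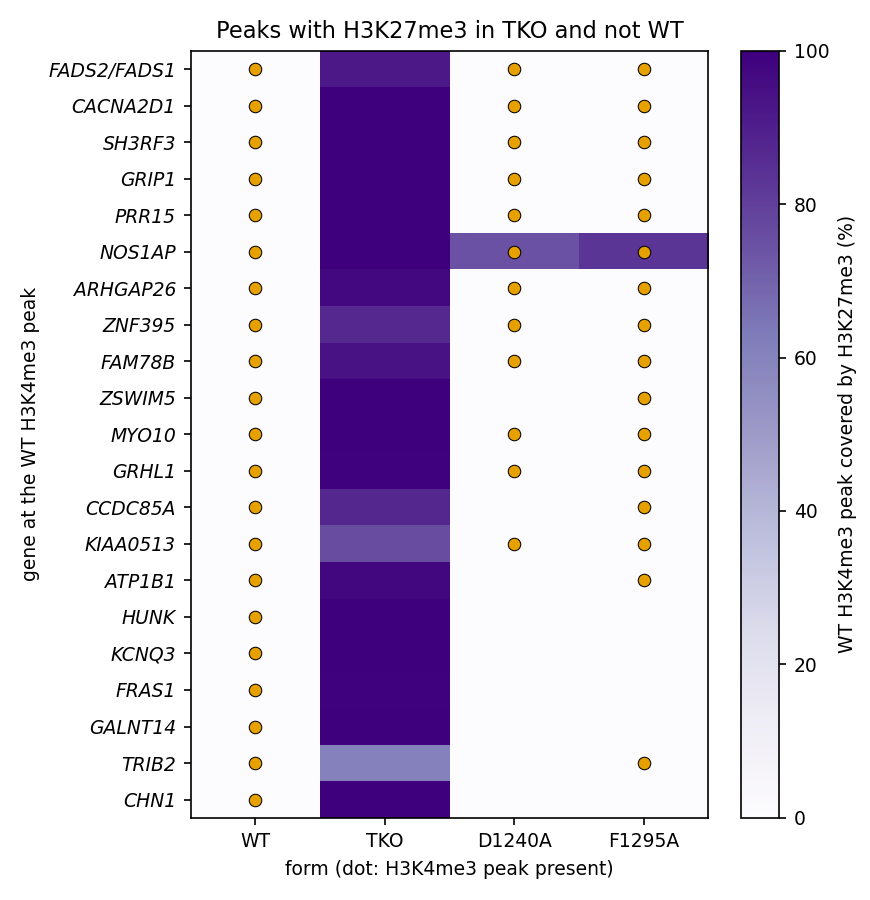
The 21 regions with H3K27me3 in TKO and not WT, 1 per row in order of WT H3K4me3 total, with the share of the WT peak covered by H3K27me3 in each form (colour, %) and a dot where the form has an H3K4me3 peak. Colour fills the TKO column, where no dot can occur by the choice of regions, while dots without colour fill much of both mutant columns.

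Another 22 regions (3.55%, against 0.521% of comparison peaks) had H3K27me3 in WT and TKO both. In every form it lay on 8 regions (1.29%, against 0.293% of all eligible peaks): PLXNA2, the peak shared by LMNA and MEX3A, FZD4, ZMIZ1, ERBB3, CRACR2B, the peak shared by SBF2 and ADM, and AGRN. H3K4me3 was present in both mutants at 7 of them, AGRN being without it in F1295A. FZD4, a Frizzled receptor of WNT and norrin signals, was covered by H3K27me3 over 100% of its peak in each list. PLXNA2, a semaphorin receptor, had totals of 277 in WT, 190 in D1240A and 300 in F1295A with H3K27me3 over 72.3% of the peak in WT and 100% in TKO. In the opposite direction 11 regions (1.78%, against 0.552% of all eligible peaks) had H3K27me3 in WT and not TKO, with a median cover of 40.8% and as little as 0.636% at ACSF3. CAMK2N2 and NXPH4 were the 2 wholly covered in WT.

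Among genes of adhesion, guidance and matrix, the guidance genes held the most regions. The gene lists used here were written with earlier results of these data known, so their counts describe and support nothing, and the share of all eligible peaks that the rule chose was 10.7%. Guidance ligands and receptors held 7 regions among 18 eligible peaks. PLXNA2 and PLXNA1 (246 in WT, 217 in D1240A and 296 in F1295A), both receptors of semaphorins, EFNB1, an ephrin ligand (193, 161 and 256), and SEMA4B (175, 160 and 240) had peaks in both mutants. SEMA6A, a transmembrane semaphorin, had 170 in WT, 190 in F1295A and no D1240A peak. Of the other two regions, 1 had a peak in F1295A alone and 1 in neither mutant. Of the other adhesion genes, NEO1 and NECTIN2 had both mutant peaks. CELSR3, a cadherin of planar polarity, did too, with a WT total of 141. F11R, a tight junction molecule, had a peak in F1295A alone (170 in WT and 208 in F1295A) and H3K27me3 in WT and TKO. VCL, which encodes vinculin and links integrins to actin, had 146 in WT and no mutant peak, and it was the 1 region among 9 eligible peaks of the integrin list. AGRN, the proteoglycan agrin, was the 1 region among 7 of the matrix list. The adhesion molecules of immunoglobulin type held 3 of 10 and the cadherins 1 of 4.

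The plasma cell list held 1 region among 2 eligible peaks, the t(4;14) myeloma list 2 of 7 and the cell cycle list 1 of 17. POU2AF1, the B cell and plasma cell coactivator, had totals of 156 in WT, 167 in D1240A and 220 in F1295A. FGFRL1, an FGF receptor gene without a kinase domain, had 154, 152 and 172. CDKN1C, an inhibitor of cyclin-dependent kinases, had 144 in WT and 213 in F1295A and no D1240A peak. Of 8 plasma cell markers read at their gene ends irrespective of peak width, 7 had H3K4me3 in WT, 5 in TKO, 6 in D1240A and 7 in F1295A. Of 5 B cell markers, 1 had H3K4me3 in WT, 1 in TKO, 1 in D1240A and 2 in F1295A. CIITA had it in every form and BCL6 in F1295A alone. No H3K4me3 was called in any form at 6 markers of T, NK and myeloid cells or 4 of stroma.

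Developmental transcription factors held 5 regions among 20 eligible peaks. SIX2 (160 in WT and 224 in F1295A) and TBX2 (156 and 170) had no D1240A peak. TBX3 had totals of 140, 160 and 216 in WT, D1240A and F1295A. NKX2-1, the lung and thyroid factor gene, had 141 in WT alone. None of these 4 had H3K27me3 in any form, and their highest signals, 112 to 137, were below the median of 251 over all regions.

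The housekeeping list held 2 regions among 13 eligible peaks, both with a peak in F1295A alone. ALAS1, the rate-limiting enzyme of heme synthesis, had 145 in WT and 189 in F1295A. The TNF and NF-kB list held 4 of 16. RELB, a subunit of the alternative NF-kB pathway, had 153, 186 and 222 in WT, D1240A and F1295A at a peak it shares with CLASRP, and the adaptor gene TRAF5 149, 164 and 247. TNFRSF10D, a decoy receptor of TRAIL, had 169, 166 and 204, and TNFRSF10B, a death receptor of TRAIL, had 161 in WT and 205 in F1295A alone. No region fell on the lists of Polycomb and H3K36 regulators (0 of 20), of H3K4 methylation regulators (0 of 18), of the B cell programme (0 of 2) or of stromal markers (0 of 1). T, NK and myeloid markers had no eligible peak.

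The regions lay at gene starts. Strand was known for the nearest gene of 500 regions, and at 494 of these (98.8%) the nearest end was the start, as at 97.9% of comparison peaks. Fewer regions than comparison peaks touched several gene records by count, 62 (10.0%, 7.77 to 12.7) against 22.0%. Whether such peaks lay between neighbouring genes was not read. For 483 regions a listed start fell inside the peak, and their promoters of 300 bases had a median of 69.0% G and C and 29 CpG dinucleotides. Comparison promoters (n = 4311) had 66.7% and 29, and all 15813 protein-coding promoters of the table had 62.7% and 22. In the weakest of 4 groups of WT totals the regions had 68.0% G and C and 28 CpG dinucleotides, and comparison promoters 64.7% and 26. The ratio of observed to expected CpG had a median of 0.847 over all regions and 0.885 over all comparison promoters. The 17 with H3K27me3 in TKO and not WT had a median of 72.3% G and C and 35 CpG dinucleotides.

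An ETS motif, searched as CCGGAAG on both strands, was in 67 of 483 promoters of the regions (13.9%, 10.9 to 17.3). It was in 24.9% of comparison promoters (23.6 to 26.2) and in 14.1% of all promoters. Within the weakest of 4 groups of WT totals the shares were 14.6% of 418 and 31.1% of 755. GC boxes (GGGCGG) were in 79.1% of the region promoters, 76.2% of comparison promoters and 58.4% of all. A match says only that these letters are in the window.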

How the data were processed

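The deposited peak lists give total and highest signal (coverage) per peak as the authors' caller wrote them, and no source read here states a scaling. Per the submitters' processing notes the tools were Trimmomatic 0.36, FastQC 0.11.4, Bowtie2 2.4.5 and SEACR 1.3, on GRCh38, and mode, control and threshold were not stated there. No read totals were at hand, so depth is unknown. Overlap meant at least 1 bp, and the gene table was RefSeq GRCh38.p14 (19974 protein-coding records on chromosomes 1 to 22 and X, 15813 with strand). Signal totals of different lists were set beside the median ratio at comparison peaks. Analyses used Python 3.11.15, numpy 2.4.6, pandas 2.3.3, scipy 1.17.1 and matplotlib 3.10.9, and returned all 4000 simulated peaks correctly. The regions, 16 gene lists and naming rule were chosen with earlier results of these data known. Named were the 6 strongest regions per mutant state, up to 5 per list, those at each limit of the rule, and examples with H3K27me3, which were chosen after their values were seen, as were the 6 bands of WT signal. Genes without a proper symbol are left out, and some list members are not reported here.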

Additional observations from a re-analysis of the deposited data

How the results depend on the processing

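No paired analysis was possible because both H3K27me3 replicates of a form share 1 list and H3K4me3 has 1 sample per form. For the same reason no replicate could be left out. Of 144 recomputed values, 111 stayed within 1.5 times the count or within the counting interval of the reported share, and all did so with windows of 500 bp or 2.5 kb, without the width limit, and without a segment of the long arm of chromosome 1. Requiring 50% cover chose 11.7% of eligible peaks in place of 10.7%. Counting peaks within 5 kb gave H3K27me3 at 7.65% of regions in WT, 11.6% in TKO, 3.99% in F1295A and 5.66% in TKO and not WT. Its share at comparison peaks was not recounted there. Keeping gene ends that are starts left 15 regions with a listed gene in place of 27. With equal peak numbers, 275 regions (5.24%) remained, 60.0% with a D1240A peak, 68.7% with an F1295A peak, 48.7% with both, 20% with neither and 9.82% with TKO H3K27me3, and 9 had a listed gene. In the weakest of 4 signal groups D1240A then had 55.6% of regions and 95.6% of the others, and F1295A 64.2% and 93.1%. In the stronger 50% of the WT list only 7 regions (0.263%) were left, 1 with a listed gene: 85.7% had a D1240A peak, 85.7% both and 14.3% neither, H3K27me3 was at 14.3% in WT, 28.6% in TKO, 0.0% in D1240A, 0.0% in F1295A and 28.6% in TKO and not WT, and all shares in the weakest group were 100%. Fewer weak peaks enter these last settings by construction. Unknown depth limits every missing call, most for regions near the lowest WT total.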

Other observations

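The regions were spread over all autosomes and the X chromosome, but unevenly. On the X chromosome 26 of 132 eligible peaks had no TKO peak (19.7%, 13.3 to 27.5), the highest share, and on chromosome 19 it was 21 of 379 (5.54%, 3.46 to 8.35), the lowest. These shares use the rule's own contrast and are a description. Of the 26 regions of the X chromosome, 11 had a D1240A peak (42.3%, 23.4 to 63.1) and 22 an F1295A peak (84.6%, 65.1 to 95.6), and both intervals contain the shares over all regions. A segment of the long arm of chromosome 1, left out as an alternative, held 5 of 74 eligible peaks as regions (6.76%), TAGLN2 among them.

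Other motifs searched on both strands of the promoters were the CCAAT box (CCAAT, 30.4% of the regions, 37.5% of comparison promoters and 36.4% of all), the NRF1 site (GCGC and, after 2 bases, GCGC again, 16.4%, 20.4% and 11.9%), the E-box (CACGTG, 9.73%, 11.8% and 8.83%) and the TATA box (TATAAA, 3.73%, 3.8% and 9.77%). The CRE (TGACGTCA) was in 3.11%, 4.06% and 2.57%, the AP-1 site (TGANTCA) in 2.90%, 2.95% and 5.74%, and the octamer (ATGCAAAT) in 2.07%, 0.974% and 1.72%. No motif of the 9 contains another, though matches can overlap.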
